A study of Mus musculus with 8 samples.

Results

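The microRNAs (miRNAs) described here are encoded inside the Hox gene clusters: both arms of miR-10a, both arms of miR-10b, miR-196a-5p and miR-196b-5p. They were chosen by name and genome position, with earlier results of these data known. They make up 6 of the 1907 mature miRNAs in the count tables. Of these 6, 4 had at least 1 count and 3 passed the filter on low counts that comes before the test. Small RNA was sequenced from primary wild-type mouse macrophages, grown from bone marrow of animals aged 8 to 12 weeks, whose strain is not given in the labels. Cells of both groups were grown into macrophages over 6 days in medium with L929 supernatant, which contains the growth factor M-CSF. One group of 3 libraries came from cells given 100 ng/ml of LPS, a bacterial product sensed through Toll-like receptor 4, for 3 h, and the other group of 3 libraries came from unstimulated cells. Nothing in the labels ties the 3 libraries of a group to different mice or dishes, so every p-value here refers to the spread among these libraries, which could be technical.

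A miRNA is cut from a hairpin-shaped transcript whose 5p and 3p arms can each be loaded into an Argonaute protein, which then represses messenger RNAs that pair with the seed, bases 2 to 8 of the miRNA. The miR-10 and miR-196 genes sit between or within Hox genes, which specify position along the body axis and are also used in blood formation. miR-10 and miR-196 are known to repress Hox messenger RNAs among other targets, and miR-196b and the Hoxa genes around it are known for high activity in blood progenitors and in some leukaemias.

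The sequences below, from RefSeq with the build GRCm38.p6, show how little separates the members, which bears on how far their counts can be told apart. Capitals mark the seed.
mmu-miR-10a-5p: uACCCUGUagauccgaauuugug
mmu-miR-10b-5p: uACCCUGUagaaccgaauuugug
mmu-miR-10a-3p: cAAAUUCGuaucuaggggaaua
mmu-miR-10b-3p: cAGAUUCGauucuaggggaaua
mmu-miR-196a-5p: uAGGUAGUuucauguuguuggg
mmu-miR-196b-5p: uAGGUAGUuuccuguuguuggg
Counted from the 5′ end, with the miR-10a or miR-196a base first, the 5p arms of miR-10a and miR-10b differed by U12A alone. The 5p arms of miR-196a and miR-196b differed by A12C alone. Both differences lie outside the seed, so the pairs formed a seed group each, ACCCUGU for miR-10 and AGGUAGU for miR-196, and no other mature miRNA of the RefSeq table had either seed. The 3p arms of miR-10a and miR-10b differed by A3G, U9A and A10U, and A3G falls in the seed, so these arms had different seeds.

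The hairpins of miR-10a and miR-10b are given in full to show the place of the arms, which are in capitals.
Mir10a, chr11:96317165-96317274, plus strand: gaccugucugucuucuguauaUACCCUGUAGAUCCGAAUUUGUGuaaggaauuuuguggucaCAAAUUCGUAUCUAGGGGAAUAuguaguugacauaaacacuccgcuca
Mir10b, chr2:74726070-74726137, plus strand: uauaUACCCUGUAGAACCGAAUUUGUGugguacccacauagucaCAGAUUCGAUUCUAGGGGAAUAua
Mir10a lies in the Hoxb cluster, inside the span of Hoxb3 and 992 bp from Hoxb4. Mir10b holds the matching place in the Hoxd cluster, inside the spans of Hoxd3 and Hoxd4. The table gives gene spans only, so whether a hairpin is exonic or intronic is not stated here.

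The mature miR-196a-5p is encoded with the same sequence in 2 hairpins, and the 3p arms, shown because they tell these hairpins apart, differ.
mmu-miR-196a-1-3p: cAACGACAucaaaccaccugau
mmu-miR-196a-2-3p: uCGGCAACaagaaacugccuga
Mir196a-1 lies in the Hoxb cluster at chr11:96265164-96265265, 6064 bp from Hoxb9 and 68553 bp from Hoxb13, inside the span of the long noncoding gene Gm51876. Mir196a-2 lies in the Hoxc cluster at chr15:102973350-102973434, between Hoxc10 (1451 bp away) and Hoxc9 (3597 bp away). Mir196b lies in the Hoxa cluster at chr6:52230081-52230165 on the minus strand, between Hoxa9 (2710 bp away) and Hoxa10 (1031 bp away), inside the span of the long noncoding gene Gm52902.

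Library totals ranged from 3280688 to 4105395 miRNA counts in the LPS group and from 3912296 to 4312555 in the unstimulated group. miR-155-3p, an arm known to appear after LPS and used here to check the labels, had 1443, 1874 and 1997 counts in the LPS libraries and 27, 8 and 16 in the unstimulated libraries. Macrophage and myeloid marker miRNAs were abundant: 6 of 7 reached 10 counts, and their summed level was 274300 to 322320 CPM in LPS libraries and 277191 to 301867 CPM in unstimulated libraries. Here CPM is the count of a miRNA scaled to 1000000 counts per library with edgeR's TMM factors. Most of that sum was miR-22-3p, with a mean of 234009 CPM over the 6 libraries. Of the 6 tested markers of this list, 1 changed with LPS, as did 5.04% of all tested miRNAs. It was miR-223-5p (log2 fold change -0.86, SE 0.15, edgeR adjusted p = 0.00623). The marker of this list below 10 counts was miR-142a-3p, with 0 counts in every library. Its partner arm miR-142a-5p had 196331 to 223791 counts in the LPS libraries and 229888 to 238828 in the unstimulated libraries. Why the 3p arm had none was not tested, so a 0 in these counts need not mean that a miRNA was scarce. Of 9 stromal and fibroblast markers, 1 reached 10 counts, miR-152-3p, and the list summed to 104 to 113 CPM in LPS libraries and 112 to 116 CPM in unstimulated libraries. The stromal markers miR-145a-5p, miR-145a-3p, miR-199a-5p and miR-218-5p had 0 counts in all 6 libraries. Of the endothelial and progenitor list of 4, which includes the Hox arm miR-196b-3p, miR-130a-3p alone reached 10 counts, and the list summed to 15.7 to 29.4 CPM in LPS libraries and 19.2 to 26.4 CPM in unstimulated libraries. No erythroid marker of 5 reached 10 counts, while 1 of 2 lymphocyte and 4 of 5 epithelial markers did. The erythroid list summed to 0.490 to 1.58 CPM in LPS libraries and 0 to 0.485 CPM in unstimulated libraries, the lymphocyte list to 63.7 to 77.6 CPM in LPS libraries and 56.3 to 71.3 CPM in unstimulated libraries, and the epithelial list to 189.9 to 236 CPM in LPS libraries and 207 to 221 CPM in unstimulated libraries.

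The first question was which Hox loci are represented. The counts came almost wholly from one locus, Mir10a in the Hoxb cluster. The 4 Hox clusters hold 6 annotated miRNA hairpins with 11 different arms in the tables, of which 5 arms had a count and 6 had 0 in all 6 libraries. Summed over the 6 libraries, the Hoxb cluster gave 532692 counts, 99.9775% of the 532812 counts from Hox hairpins. The Hoxd cluster, with Mir10b, gave 76 counts. The Hoxa cluster, with Mir196b, gave 41 counts. The Hoxc cluster gave 3 counts, all from miR-615-3p, which had 0, 1 and 2 counts in the LPS libraries and 0 in each unstimulated library. Within the Hoxb cluster every count was of miR-10a, and no arm of Mir196a-1 had a count. Reads of miR-196a-5p would fit both Mir196a-1 and Mir196a-2, and how such reads were counted is not given in the sources used here.

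**Figure D1:**
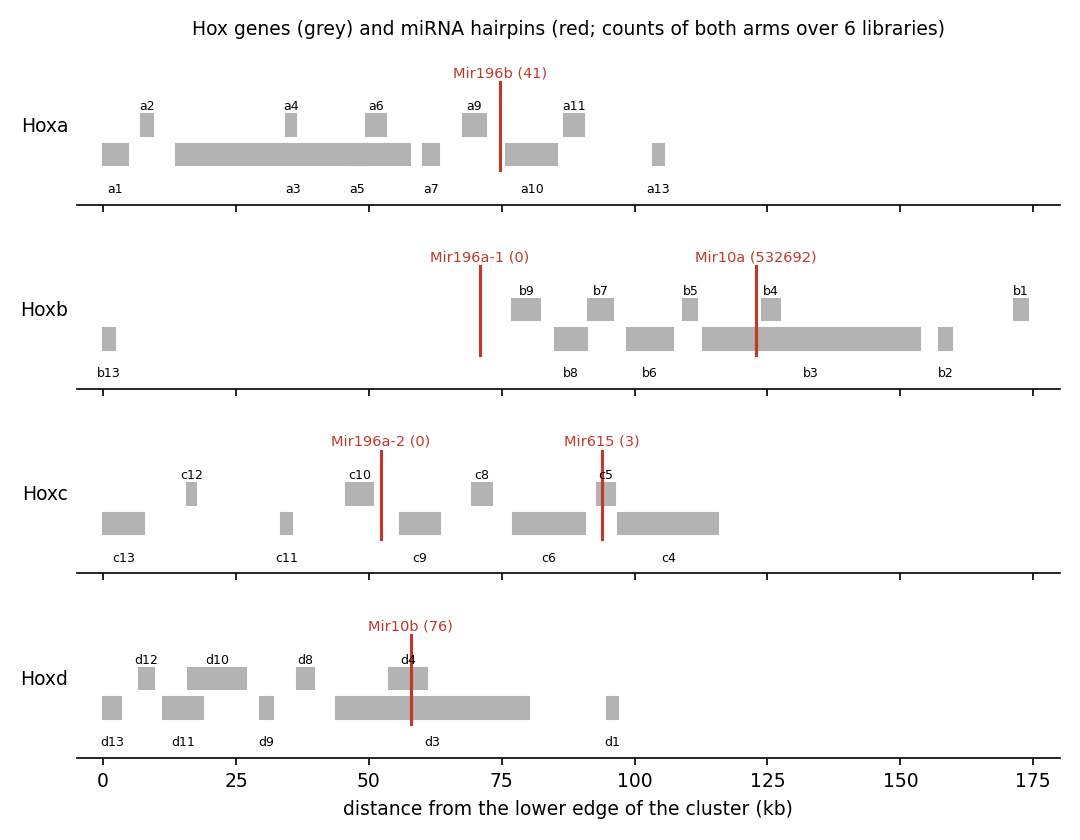
The Hox genes (grey bars, named by cluster letter and number) and miRNA hairpins (red lines) of the 4 clusters against distance in kb from each cluster's lower edge, with the counts of both arms summed over 6 libraries in brackets. Mir10a holds 532692 counts, against 76 for Mir10b, 41 for Mir196b, 3 for Mir615 and 0 for both miR-196a hairpins.

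miR-10a-5p, the main product of Mir10a, was among the most abundant miRNAs of these cells. It ranked 9 of 1907 by mean level. It had 66153, 90158 and 90573 counts in the LPS libraries and 116259, 79531 and 89685 counts in the unstimulated libraries. Scaled, that was 20941, 22096 and 22981 CPM in the LPS libraries, against 27594, 19299 and 21744 CPM in the unstimulated libraries. All LPS values lay inside the range of the unstimulated values, and unstimulated replicate 1 was the highest library. Its level averaged 22006 ± 1023 CPM in LPS libraries and 22879 ± 4262 CPM in unstimulated libraries (SD, n = 3 each). In bulk samples such as these, fewer cells of a type and less RNA per cell cannot be told apart.

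The second question was whether 3 h of LPS altered the members. None of the 3 tested members passed, and 18 of the 357 miRNAs tested did (5.04%), with 42 of 357 at an unadjusted p below 0.05 and no tested member among them. For miR-10a-5p the log2 fold change was -0.06 (SE 0.13, 95% interval -0.35 to 0.23; edgeR quasi-likelihood test, Benjamini-Hochberg adjusted p = 0.949). Without unstimulated replicate 1 the log2 fold change of miR-10a-5p was 0.06 (edgeR adjusted p = 0.921). miR-10a-3p had 0.15 (SE 0.20, interval -0.29 to 0.58, edgeR adjusted p = 0.943). miR-10b-5p had -0.29 (SE 0.37, interval -1.12 to 0.54, edgeR adjusted p = 0.943), and its interval was the widest of the 3. The median log2 fold change of all 357 was 0.01. DESeq2 and limma-voom called no tested member either. The groups overlapped in all 3 tested members, while 57 of the 357 miRNAs (16%) had groups that did not overlap.

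**Figure D2:**
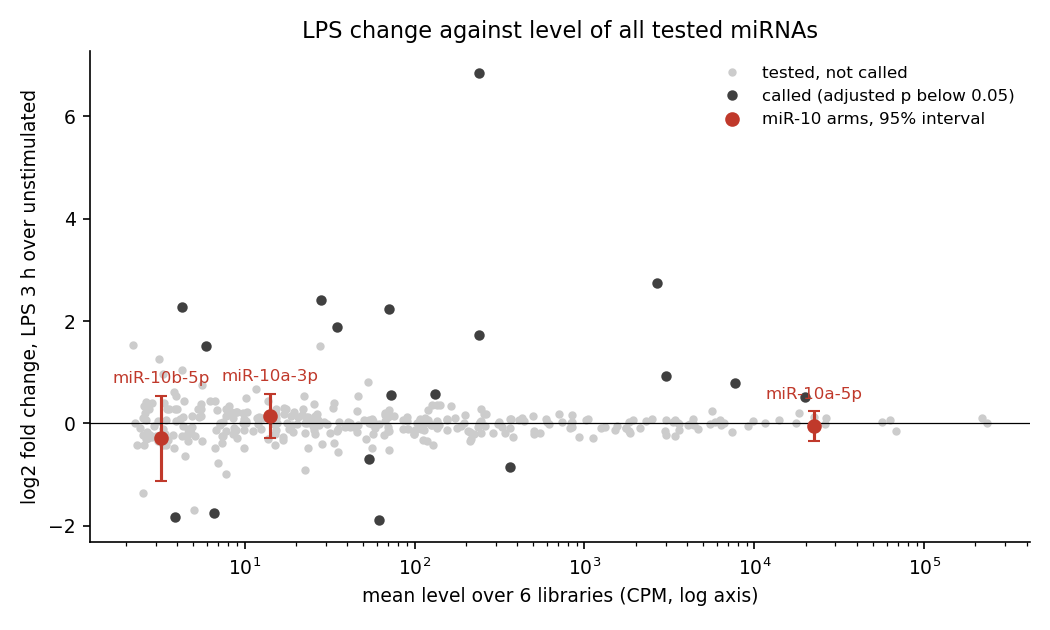
Log2 fold change of LPS 3 h over unstimulated against mean level in CPM (log axis) for the 357 tested miRNAs, each a point. Black points passed the test, and the 3 miR-10 arms are red with 95% intervals, which all include 0 and are widest for miR-10b-5p (-1.12 to 0.54).

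The 6 members together held 2.02%, 2.26% and 2.21% of all counts in the LPS libraries and 2.70%, 2.03% and 2.24% in the unstimulated libraries. Means were 2.16% ± 0.127 in LPS libraries and 2.32% ± 0.339 in unstimulated libraries (SD, n = 3 each; two-sided exact permutation p = 0.6). That difference was smaller than the spread of the unstimulated libraries. For groups of 3 libraries each, this exact permutation test cannot go below p = 0.1. It was run on 7 quantities: this share, the levels of the 4 members with counts, the miR-10b to miR-10a ratio and the 3p share of miR-10a. All 7 had a Benjamini-Hochberg adjusted permutation p of 0.7.

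miR-10b-5p carries the miR-10a seed but was close to the lower limit of detection. It had 13, 13 and 6 counts in the LPS libraries and 14, 13 and 17 counts in the unstimulated libraries. LPS replicate 3 was the lowest library, and the others lay between 13 and 17 counts. Its level was 2.94 ± 1.31 CPM in LPS libraries and 3.53 ± 0.517 CPM in unstimulated libraries (SD, n = 3 each). Without LPS replicate 3 its log2 fold change was 0.08 (edgeR adjusted p = 0.996), against -0.29 with all libraries. The log2 ratio of miR-10b-5p to miR-10a-5p counts within a library averaged -12.98 ± 0.81 in LPS libraries and -12.65 ± 0.33 in unstimulated libraries (two-sided exact permutation p = 0.7, n = 3 each). Without LPS replicate 3 the difference of these means was 0.12, against -0.33 with all libraries.

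Since the 5p arms of miR-10a and miR-10b differ by 1 base, reads of one could have been counted as the other, and the handling of mismatches is not given in the sources used here. Over the 6 libraries miR-10b-5p came to 0.0143% of the miR-10a-5p counts. For comparison, 9 pairs of mature miRNAs that differ by 1 base and have the same length reached 10000 counts in the more abundant partner, and their median was 6.06%. The miR-10 pair had the lowest share of these 9, followed by miR-106a-5p against miR-17-5p (0.0360%), and the highest was let-7c-5p against let-7b-5p (21.4%). The pairs are not independent: let-7a-5p was the scarcer partner of both let-7f-5p (6.06%, the median pair) and let-7e-5p (12.6%). They were not limited to miRNAs at 1 position, and how reads with several positions were counted is not given. Whether the 76 counts of miR-10b-5p hold misread miR-10a-5p was not tested. With the counts of both summed to 1 feature, the log2 fold change was -0.05 (edgeR adjusted p = 0.960).

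**Figure D3:**
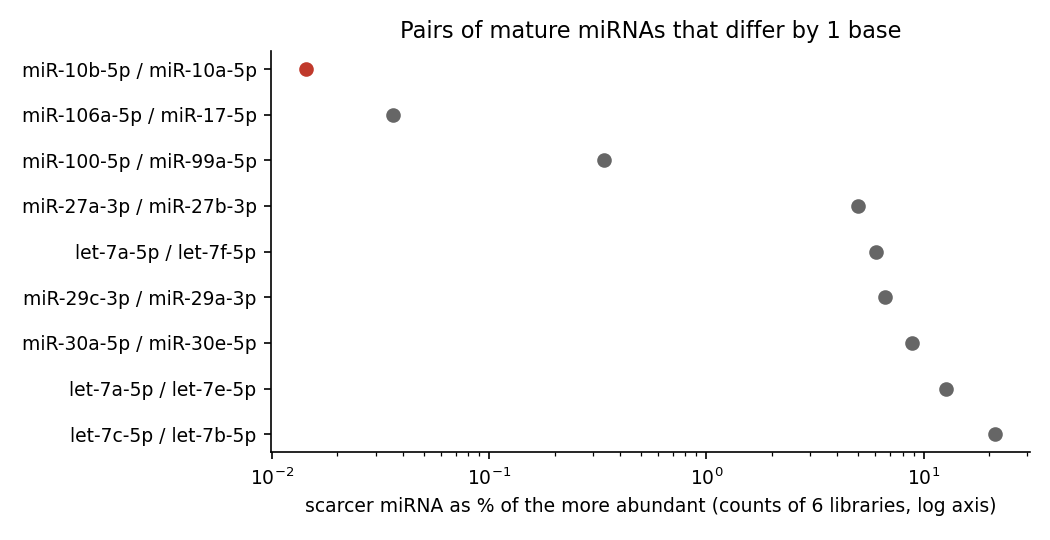
For the 9 pairs of equal-length mature miRNAs that differ by 1 base and have at least 10000 counts in the more abundant partner, the counts of the scarcer as a percentage of the more abundant (6 libraries summed, log axis). miR-10b-5p against miR-10a-5p (red) is lowest at 0.0143%, and the median pair is at 6.06%. Some pairs share a miRNA, so the pairs are not independent.

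The miR-196 family was scarce or not detected. miR-196b-5p, from the Hoxa cluster, had 6, 10 and 7 counts in the LPS libraries and 6, 7 and 5 counts in the unstimulated libraries. It averaged 2.04 ± 0.359 CPM in LPS libraries and 1.45 ± 0.244 CPM in unstimulated libraries (SD, n = 3 each). It was below the filter and was not tested in the edgeR comparison. On the TMM scale its lowest LPS library (1.78 CPM) stood above its highest unstimulated library (1.70 CPM). Scaled by library totals instead, the groups overlapped, with 1.83, 2.50 and 1.71 CPM in the LPS libraries and 1.39, 1.79 and 1.25 in the unstimulated libraries (two-sided exact permutation p = 0.2, n = 3 each). Without a filter on low counts, which the simulated data did not cover, the log2 fold change of miR-196b-5p was 0.52 (SE 0.48, edgeR adjusted p = 0.812). Its partner arm miR-196b-3p had 0 counts in all 6 libraries.

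miR-196a-5p had 0 counts in all 6 libraries. A count of 0 allows up to 3 counts in a library, which is 0.735 to 0.950 CPM in the LPS libraries and 0.712 to 0.728 CPM in the unstimulated libraries. This limit covers counting error only, and not the spread between libraries or reads lost in counting. Because 2 hairpins encode the same miR-196a-5p, its reads fit 2 places in the genome, and how the authors counted such reads is not given in the sources used here. Of 51 mature miRNAs that the RefSeq table places at 2 or more positions, 33 (64.7%) had 0 counts in all libraries, against 771 of 1572 (49.0%) with 1 position. Of the 51, 14 reached 10 counts, and the highest was miR-92a-3p with up to 113719 counts in a library. Mean levels of tested miRNAs whose partner arms are numbered 1 and 2, as for miR-196a, varied. miR-181a-5p (3.37 CPM) lay below miR-181a-1-3p (223 CPM) and miR-181a-2-3p (34.8 CPM). miR-29b-3p (3.50 CPM) also lay below both its partners. miR-125b-5p (58.7 CPM) lay between miR-125b-1-3p (3.30 CPM) and miR-125b-2-3p (837 CPM). miR-16-5p (120 CPM) and let-7f-5p (1755 CPM) lay above both of theirs. The 3p arms miR-196a-1-3p and miR-196a-2-3p, whose sequences differ, also had 0 counts in every library. The 0 of miR-196a-5p is therefore a statement about the deposited counts, and whether its reads were dropped was not tested.

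**Figure D4:**
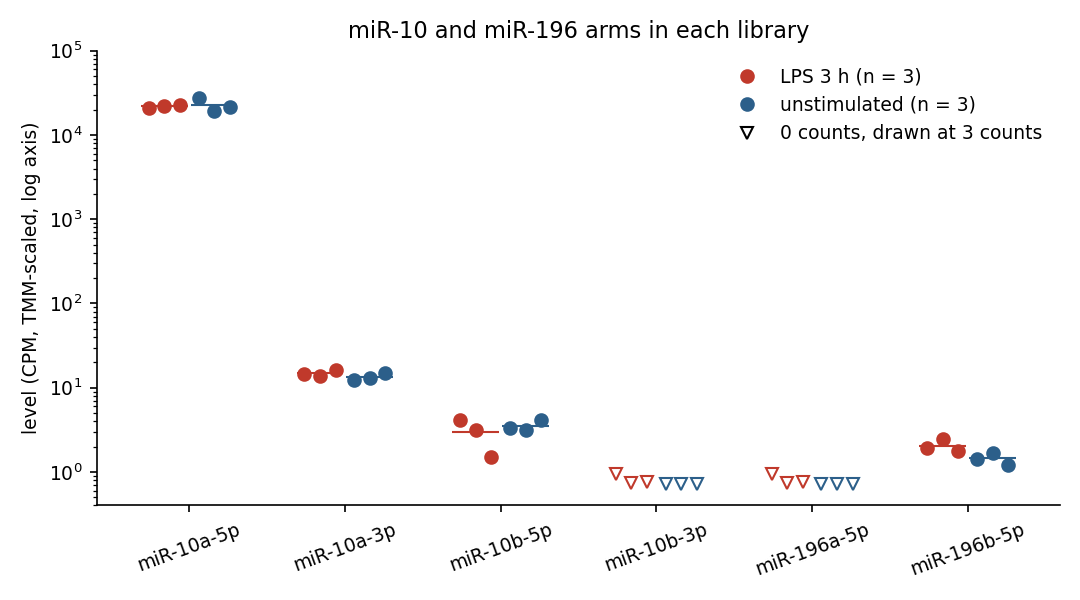
Level in CPM (log axis) of the 6 members in each LPS library (red) and unstimulated library (blue), with a line at each group mean. miR-10a-5p averages 22006 CPM in LPS libraries and 22879 CPM in unstimulated libraries, miR-10a-3p between 12.3 and 16.2 CPM, miR-10b-5p and miR-196b-5p below 4.2 CPM, and open triangles mark 0 counts, drawn at the level of 3 counts.

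The third question was the balance of the arms. The 5p arm supplied nearly all miR-10a counts in both conditions. miR-10a-3p had 46, 56 and 64 counts in the LPS libraries and 52, 54 and 61 counts in the unstimulated libraries. The ranges overlapped. Its level was 14.8 ± 1.28 CPM in LPS libraries and 13.4 ± 1.25 CPM in unstimulated libraries (SD, n = 3 each). There were 1438, 1610 and 1415 counts of the 5p arm for each count of the 3p arm in the LPS libraries, against 2236, 1473 and 1470 in the unstimulated libraries.

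As a share of miR-10a counts, the 3p arm took 0.0695%, 0.0621% and 0.0706% in the LPS libraries, against 0.0447%, 0.0679% and 0.0680% in the unstimulated libraries. Their 95% Wilson intervals ran from 0.0478% to 0.0927% over the LPS libraries and from 0.0341% to 0.0885% over the unstimulated libraries. Like the limits on counts of 0, these intervals cover counting error only and not the spread between libraries. The low library was unstimulated replicate 1, in which miR-10a-5p was highest. Mean shares were 0.0674% ± 0.0046 in LPS libraries and 0.0602% ± 0.0134 in unstimulated libraries (two-sided exact permutation p = 0.5, n = 3 each). In limma's fit of the 3p minus the 5p arm over 100 hairpins, miR-10a had a difference of 0.18 on the log2 scale (SE 0.24, 95% interval -0.33 to 0.69, limma adjusted p = 0.816), and 12 hairpins passed (12%). Without unstimulated replicate 1 the miR-10a difference was -0.01 (limma adjusted p = 0.960).

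Across the 100 hairpins with both arms tested, the less abundant arm held a median of 7.18% of the counts of its hairpin over the 6 libraries. For miR-10a it held 0.0625%, the second lowest of these 100 shares after miR-191. In 5 of the 100 the share was under 0.1%, and the 5p arm was the abundant one in 55 of the 100. Hairpins with an arm below the filter on low counts were left out, so more uneven hairpins can be missing from this order. For example, miR-142a and miR-30e had 0 counts of the 3p arm over the 6 libraries and were left out. For miR-10b no 3p count was found beside 32 counts of the 5p arm in the LPS libraries and 44 in the unstimulated libraries. If no reads were lost in counting, this allows a 3p share of up to 9.38% in the LPS group and 6.82% in the unstimulated group. A share as low as that of miR-10a was therefore not detectable at this depth.

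**Figure D5:**
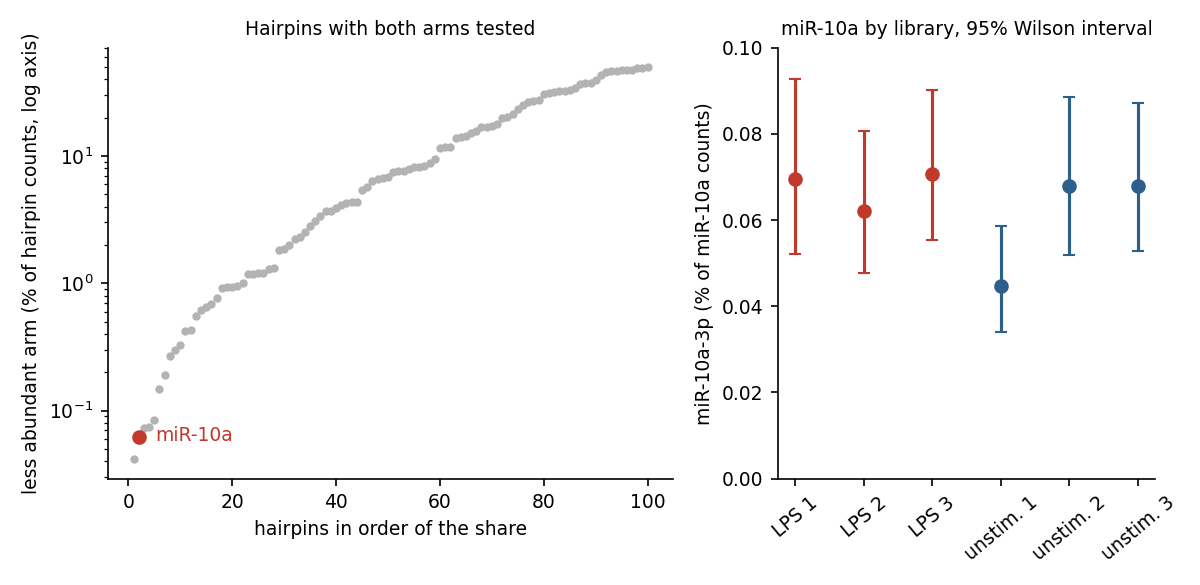
Left, the less abundant arm as a percentage of the counts of its hairpin (log axis) for the 100 hairpins with both arms tested, in rising order, with miR-10a in red at 0.0625%. Right, the miR-10a-3p share in each LPS library (red) and unstimulated library (blue) with its 95% Wilson interval (counting error only), lowest in unstimulated replicate 1 at 0.0447%.

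In the order of mean levels over all 6 libraries, the neighbours of miR-10a-5p (22443 CPM) were miR-221-3p (22575 CPM) above and miR-222-3p (19867 CPM) below. The library values of miR-10a-5p and miR-221-3p overlapped within each condition. In the LPS libraries miR-222-3p had 21877, 25999 and 22277 CPM, overlapping miR-10a-5p, and in the unstimulated libraries it had 15065, 17386 and 16597 CPM, below every value of miR-10a-5p. miR-10a-3p (14.1 CPM) lay between miR-467e-5p (14.1 CPM) and miR-181b-1-3p (13.7 CPM). miR-10b-5p (3.24 CPM) ranked 332 and lay between miR-34a-3p (3.29 CPM) and miR-500-5p (3.15 CPM). In the unstimulated libraries miR-500-5p, at 1.42, 2.91 and 1.21 CPM, lay below every value of miR-10b-5p, while in the LPS libraries the values overlapped. miR-196b-5p (1.74 CPM) ranked 381 and lay between miR-351-3p (1.76 CPM) and miR-5113 (1.70 CPM). Apart from miR-222-3p and miR-500-5p in unstimulated libraries, the values of each member and its neighbours overlapped within each condition.

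Among 254 other tested miRNAs with a mean of at least 10 CPM, the log-CPM pattern over the 6 libraries most like that of miR-10a-5p was that of miR-148b-3p, by Pearson's r (0.96), followed by miR-151-3p (0.96) and miR-1843b-5p (0.94). These are the highest of many values over 6 libraries that share scaling and depth, and are given as a description. All 3 were also highest in unstimulated replicate 1, miR-148b-3p with 4250 CPM there, against 3403 to 3773 CPM in the LPS libraries and 3161 and 3511 CPM in the other unstimulated libraries. For miR-10b-5p the most alike were miR-340-3p (0.94), miR-1943-5p (0.91) and let-7d-5p (0.91), all lowest in LPS replicate 3 as miR-10b-5p was.

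Some miRNAs outside the Hox clusters resemble miR-10a-5p in sequence without sharing its seed. Runs shared with miR-10b-5p were not searched for. The run GUAGAUCCGAA, 11 bases from position 7 of miR-10a-5p, recurs in miR-100-5p from position 6, and the first 10 of these bases recur in miR-99a-5p. miR-99a-5p had 2847 ± 198 CPM in LPS libraries and 3138 ± 288 CPM in unstimulated libraries (log2 fold change -0.14, SE 0.11, edgeR adjusted p = 0.856). miR-100-5p had 10.3 ± 0.891 CPM in LPS libraries and 10.1 ± 3.12 CPM in unstimulated libraries (log2 fold change 0.02, SE 0.26, edgeR adjusted p = 0.998). Neither passed the test, and both were below miR-10a-5p in every library. The seed of the miR-10 5p arms is found away from the seed position in 3 mature miRNAs of the tables, miR-1954, miR-7023-3p and miR-706. The miR-196 seed AGGUAGU is found away from the seed position in 11 other mature miRNAs of the tables, among them let-7a-5p, let-7b-5p and let-7c-5p.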

How the data were processed

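Raw counts per mature miRNA were deposited for each library. Novoalign, SAMtools 0.1.19 and the build GRCm38.p1 (mm10) are named in the notes of the submitters on processing. How reads were counted, on which strand, against which annotation and with what treatment of reads with several positions is not given in the sources used here. The members and lists were chosen with earlier results of these data known. All 6 libraries entered each fit. Changes were tested with edgeR 4.0.16 (quasi-likelihood, TMM factors of 0.96 to 1.053, filterByExpr with a minimum count of 10) in R 4.3.3, adjusted by Benjamini-Hochberg over 357 miRNAs, with an adjusted p below 0.05 called a change. Arm differences used limma 3.58.1 on log-CPM with a prior count of 2 and a variance trend. Single values were compared by exact permutation over libraries (scipy 1.17.1). The fits were tested on simulated data. Alternatives were DESeq2 1.42.0, limma-voom, other scalings and filters, a replicate block, summed near-identical copies and leaving out each library.

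RefSeq sequences of the build GRCm38.p6, a later patch, matched 1623 of 1907 mature miRNAs by name, all 6 members among them. No pair of libraries of a group agreed within counting noise (lowest chi-square divided by its degrees of freedom 53.0), so none was merged as the same library deposited again. Repeat preparations from 1 sample can differ by more than counting noise as well, so independence is not shown by it. Named miRNAs are the members, the other arms of Hox hairpins, neighbours in level, the 3 most alike in pattern, markers and miR-155-3p. miRNAs of shared sequence runs, the one-base pairs, and those at several positions were chosen after the values were seen. The 2 samples of the chromosome conformation assay were not analysed here.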

Additional observations from a re-analysis of the deposited data

How the results depend on the processing

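In none of the 43 alternative fits of miR-10a-5p, miR-10a-3p and miR-10b-5p did a member pass (lowest adjusted p = 0.74, edgeR, DESeq2 or limma-voom), nor did miR-10a in the 10 alternative arm fits by limma. Leaving out 1 library gave log2 fold changes of -0.15 to 0.057 for miR-10a-5p, 0.05 to 0.25 for miR-10a-3p and -0.60 to 0.080 for miR-10b-5p, and -0.015 to 0.28 for the arm difference of miR-10a; the sign turned for miR-10a-5p and its arm difference without unstimulated replicate 1 and for miR-10b-5p without LPS replicate 3. In the same setting the differences of means, LPS minus unstimulated, ran from -0.306 to 0.0256 percentage points for the share of all members and from -0.306 to 0.0256 for miR-10a-5p alone, on library totals from -1.24 to 0.00659 CPM for miR-10b-5p, from 0.0388 to 1.62 CPM for miR-10a-3p (0.855 with all) and from 0.291 to 0.694 CPM for miR-196b-5p (0.537 with all), from -0.67 to 0.12 for the log2 ratio of miR-10b-5p to miR-10a-5p, and from -0.00052 to 0.0111 percentage points for the 3p share of miR-10a. With the 2 most abundant miRNAs left out of the totals, all of these shares become larger by construction. Their differences were then -0.289 percentage points for all members and for miR-10a-5p (exact permutation p = 0.8), 1.70 CPM for miR-10a-3p (0.4), -1.28 CPM for miR-10b-5p (0.4) and 0.985 CPM for miR-196b-5p (0.1, the smallest this test can give). Over all miRNAs, 13 rose and 5 fell. With upper-quartile factors 8 rose and 5 fell, and with no filter 18 rose and 8 fell. At a minimum count of 50, 11 rose and 3 fell. Leaving out 1 library gave 9 to 13 rises and 2 to 6 falls (2 without LPS replicate 3). Why these counts moved was not tested, other than that filters change how many miRNAs are tested (941 with no filter, 247 with a minimum count of 50).

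Same-numbered libraries were not shown to be pairs: their deviations from the group means correlated at 0.02, 0.14 and -0.04 across miRNAs, and not every library correlated best with its own number. With a replicate block 11 miRNAs rose and 6 fell, the log2 fold changes of miR-10a-5p, miR-10a-3p and miR-10b-5p were -0.04, 0.14 and -0.30, and the arm difference of miR-10a was 0.18; no member passed. A minimum count of 50 left no value for miR-10b-5p, and the 3p share of miR-10b could not be compared because its 3p arm had no counts. Depth limits miR-10b-5p and miR-196b-5p, with 5 to 17 counts in a library.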
